A study of Mus musculus with 9 samples.

Results

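The 38 genes described here are chemokines and chemokine receptors: 26 ligands and 12 receptors, chosen by gene symbol from a count table of 57238 gene entries. They were measured by bulk RNA-seq in bone marrow-derived dendritic cells (BMDCs) of wildtype C57BL/6 mice, all grown from bone marrow over 6 days in GM-CSF at 20 ng/ml. The groups, with 3 libraries each, were untreated cells (CTR), cells given exosomes of NIH-3T3 cells, a non-cancerous mouse fibroblast line (NE), and cells given tumor cell-derived exosomes (TDE), with 24 hours of exposure in both exosome groups. The labels do not name the tumor line and do not say whether replicates came from separate mice or cultures, so p-values cover the spread between these libraries, which may be technical. TDE against CTR asks what tumor exosomes changed, NE against CTR what exosomes of non-tumor cells changed, and TDE against NE whether the source of the exosomes mattered.

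Chemokines are small secreted proteins that steer migrating leukocytes along gradients by way of G protein-coupled receptors. The CC and CXC families are named for the spacing of their first cysteines, and CX3CL1 forms a family of its own. CXC ligands that carry a Glu-Leu-Arg motif act on CXCR2 and draw neutrophils, inflammatory CC ligands draw monocytes and T cells, and CCR7 brings mature dendritic cells to lymph nodes. Atypical receptors bind chemokines without coupling to G proteins and clear or present them. GM-CSF cultures of bone marrow hold macrophage-like cells and granulocytes beside dendritic cells, and in bulk libraries fewer cells of a type and less RNA per cell cannot be told apart.

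Of the 38 members, 30 had enough counts to be tested, 19 ligands and 11 receptors. Ccl8 and Ccl11 had 0 reads in every library, Ccl12, Ccl20, Cxcl9, Cxcl11 and Ackr2 had at most 4 reads in any library, and Ccl7 had 2 to 13. The deposited estimated counts summed to 17469782 to 21092943 per library. One library stood apart: CTR replicate 1 had a mean correlation of 0.870 with the other CTR libraries, while no 2 of the remaining 8 libraries correlated below 0.941. Relative to the mean of CTR replicates 2 and 3, its log2 level was 1.33 higher at the median of 1647 tested genes shorter than 1 kb and 0.56 lower at the median of 6315 genes longer than 3 kb (0.5 CPM added to each value). NE replicate 3 differed from the mean of NE replicates 1 and 2 in the same directions but less, 0.36 higher and 0.18 lower. Many chemokine transcripts are short, so values that rest on CTR replicate 1 are given with and without it. Dendritic cell genes were present in every library (Itgax at 107 to 178 CPM, counts scaled to the library's TMM-adjusted size, Flt3 at 11.6 to 16.0, Zbtb46 at 13.7 to 19.9), whereas Cd209a was at 0.163 CPM or less.

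TDE-treated cells differed from both other groups in a set of neutrophil-attracting CXC ligands, which rose. They also differed in Ccl6 and Ccl9, the CC ligands with the highest counts, which fell. By edgeR's quasi-likelihood test with Benjamini-Hochberg adjustment over 15028 genes, 12 of 19 tested ligands passed an adjusted p of 0.05 in TDE against CTR, 6 higher and 6 lower. Among all genes tested in that comparison 16.9% passed, 7.57% higher and 9.34% lower. Of the 11 tested receptors 6 passed, 3 higher and 3 lower. Against NE, 10 ligands passed, 5 in each direction, and 5 receptors, 3 higher and 2 lower, with 13.9% of all genes passing, 6.73% higher and 7.21% lower. In NE against CTR no member passed, nor did any other gene (0% of 15028). The members and gene lists were chosen with earlier results of these data known, so the shares of all genes are given as background and not as a test. The median log2 fold change over the tested ligands in TDE against CTR was -0.48, compared with -0.05 over all genes, and without CTR replicate 1 it was 0.16, so the sign of that median rested on 1 library. TDE against CTR and TDE against NE share the TDE libraries, and their values are given side by side rather than as independent results.

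**Figure D1:**
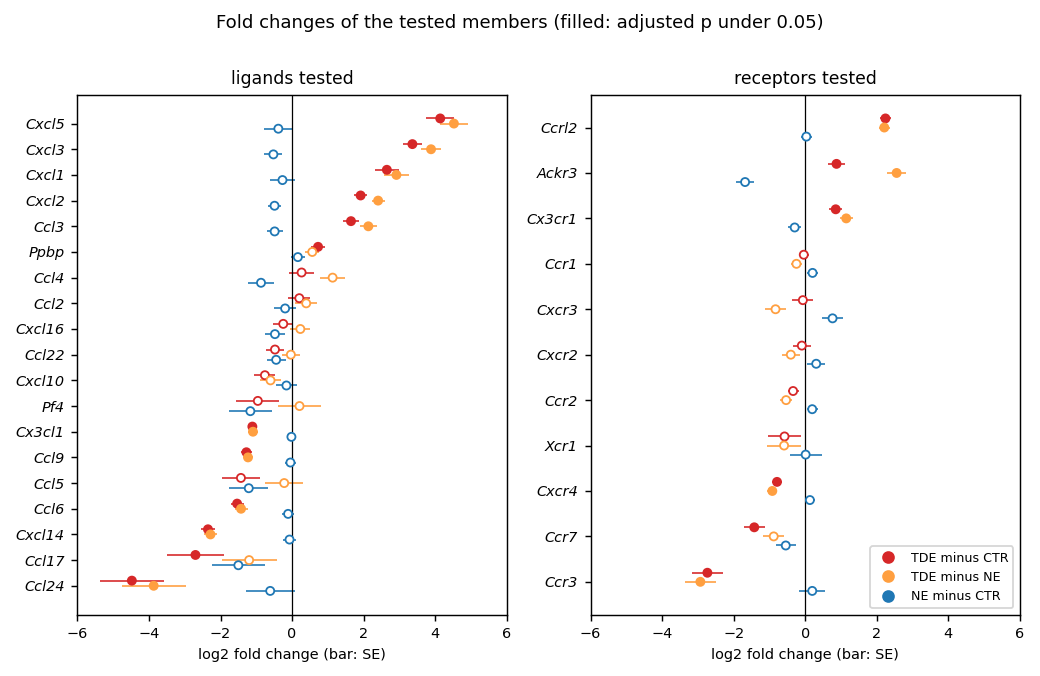
Log2 fold change with its standard error (bars) for each tested ligand (left) and receptor (right), in TDE against CTR (red), TDE against NE (orange) and NE against CTR (blue). Filled points have an adjusted p under 0.05 (edgeR). Cxcl5, Cxcl3, Cxcl1, Cxcl2, Ccl3 and Ccrl2 lie far to the right in both TDE comparisons, Ccl24, Ccr3 and Cxcl14 far to the left, and no blue point is filled.

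Among the CC ligands, Ccl6 and Ccl9, a related pair of macrophage and myeloid chemokines that are neighbours on chromosome 11, were the ligands with the highest counts and fell in TDE-treated cells. Ccl6 was at 2593, 1893 and 1730 CPM in the CTR libraries, 1845, 1803 and 2111 CPM in NE, and 720, 725 and 698 CPM in TDE. Ccl9 was at 1620, 1345 and 1213 CPM in CTR, 1297, 1306 and 1447 CPM in NE, and 586, 566 and 573 CPM in TDE. For both genes every TDE library lay well below every other library, and the TDE libraries were close to each other. Ccl6 had a log2 fold change of -1.54 ± 0.18 (SE) against CTR (edgeR adjusted p = 0.0013) and -1.43 ± 0.18 against NE (adjusted p = 0.00167). For Ccl9 it was -1.28 ± 0.15 against CTR (edgeR adjusted p = 0.00126) and -1.23 ± 0.15 against NE (adjusted p = 0.00136).

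Ccl3, the macrophage inflammatory protein 1-alpha that acts on CCR1, moved the other way. It was at 32.6, 25.3 and 20.4 CPM in CTR, 18.8, 15.7 and 21.4 CPM in NE, and 97.1, 64.6 and 84.0 CPM in TDE. Every TDE library was above every other library, and the fitted TDE level was 3.14-fold the CTR level and 4.39-fold the NE level. This was a log2 fold change of 1.65 ± 0.23 against CTR (edgeR adjusted p = 0.00268) and 2.13 ± 0.23 against NE (adjusted p = 0.000844). Its neighbour Ccl4, the macrophage inflammatory protein 1-beta, ranged from 6.55 to 14.2 CPM in CTR, 3.87 to 6.36 CPM in NE and 8.73 to 14.1 CPM in TDE. Ccl4 did not pass in TDE against CTR (log2 fold change 0.27, edgeR adjusted p = 0.600) or in TDE against NE (1.14, adjusted p = 0.0745). Without CTR replicate 1, which held the highest Ccl4 value, the log2 fold change against CTR was 0.72 (edgeR adjusted p = 0.0450). The estimated counts of Ccl3 and Ccl4 were fractional in 7 libraries and added to a whole number in all 9, within 0.011 reads, so some reads had been divided between the pair. The summed count of both was 537 to 739 reads in CTR, 377 to 559 in NE and 1344 to 2006 in TDE, where every library was above all CTR and NE libraries.

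Ccl24, an eosinophil-attracting ligand of CCR3, was low everywhere and lowest in TDE. It was at 5.77, 0.99 and 0.96 CPM in CTR, 1.80, 1.25 and 1.94 CPM in NE, and 0.055, 0.109 and 0.157 CPM in TDE. The TDE values are 1, 2 and 3 reads, at or under 3 reads per library, so the size of the drop is poorly bounded. Pooled over libraries, CTR held 132 reads and TDE 6, a ratio of 21.1 (95% exact interval 9.45 to 58.6, counting error only). The ratio was 9.04 (3.81 to 26.04) without CTR replicate 1, and NE over TDE gave 15.5 (6.85 to 43.2). Ccl24 passed against CTR (edgeR adjusted p = 0.0120) and against NE (adjusted p = 0.0230), and the second call was lost when any single NE or TDE library was left out. Without TDE replicate 1 or TDE replicate 2 the call against CTR was lost too.

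Ccl17, a CCR4 ligand made by mature dendritic cells, had a fold change that rested in part on 1 library. It was at 31.9, 5.37 and 3.83 CPM in CTR, 3.50, 4.01 and 6.91 CPM in NE, and 2.55, 1.64 and 2.09 CPM in TDE. TDE was lowest in every library, but CTR replicate 1 was 6.92-fold the mean of the other CTR libraries. In TDE against CTR the log2 fold change was -2.70 ± 0.79 (edgeR adjusted p = 0.04998) with that library and -1.15 ± 0.33 (adjusted p = 0.0244) without it. Against NE it was -1.20 ± 0.77 (edgeR adjusted p = 0.395). The call against CTR was also lost without any single TDE library (adjusted p up to 0.162 over all alternatives).

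The same library stood out in Ccl5, a ligand that attracts T cells and monocytes. Ccl5 was at 908 CPM in CTR replicate 1 but 235 and 185 CPM in the other CTR libraries, 167 to 225 CPM in NE and 156 to 177 CPM in TDE. In TDE against CTR its log2 fold change was -1.43 with all libraries (edgeR adjusted p = 0.105) and -0.36 without CTR replicate 1 (adjusted p = 0.0785). Ccl22, the other CCR4 ligand among the members, was at 281 to 578 CPM in CTR, 255 to 333 CPM in NE and 274 to 294 CPM in TDE, and did not pass in any comparison. Ccl2, the main CCR2 ligand, was at 1.33 to 2.62 CPM across all 9 libraries with overlapping groups (log2 fold change 0.20 against CTR, edgeR adjusted p = 0.647). The other members of its cluster on chromosome 11, Ccl7, Ccl8, Ccl11 and Ccl12, were the untested CC ligands, together with Ccl20.

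**Figure D2:**
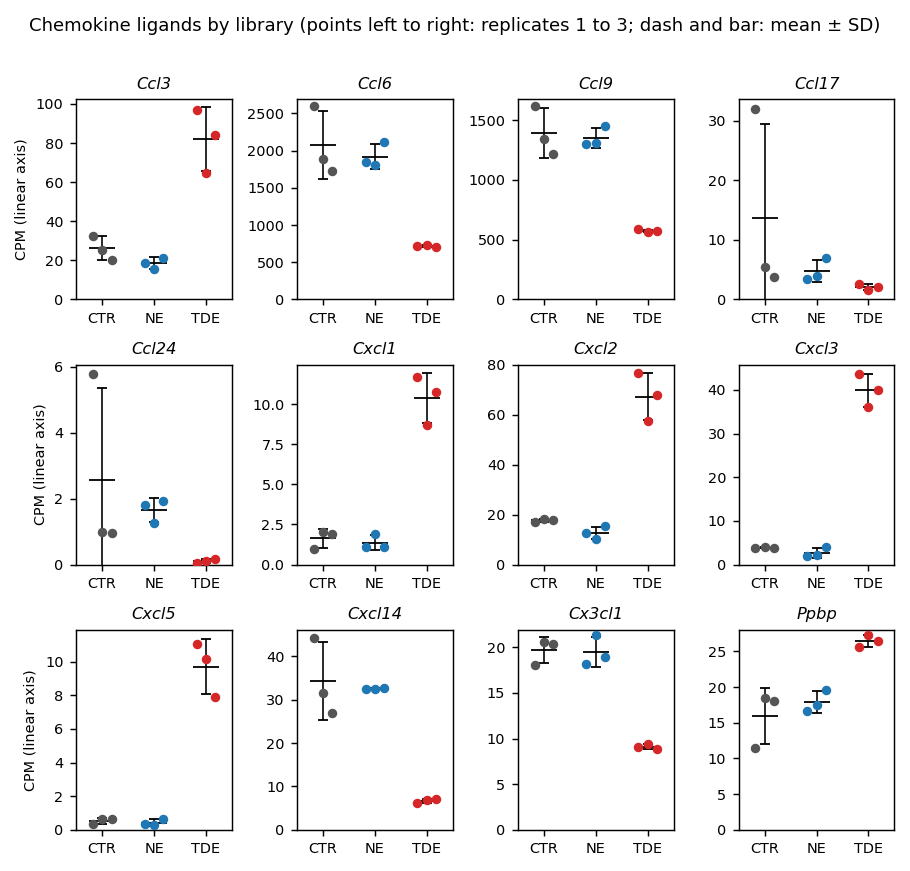
CPM in each library (linear axes starting at 0) for the 12 ligands that passed in TDE against CTR or TDE against NE. Points are replicates 1 to 3 from left to right, dashes the group mean and bars the SD (the bars of Ccl17 and Ccl24 in CTR are cut at 0). Ccl3, Cxcl1, Cxcl2, Cxcl3, Cxcl5 and Ppbp have all TDE points above the rest, and CTR replicate 1 stands alone at the top for Ccl17 and Ccl24.

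Among the CXC ligands, the genes that rose were those of a single cluster. There, 6 members lie within 146.6 kb of chromosome 5 (GRCm38, chr5:90759360-90905938), in the order Cxcl5, Ppbp, Pf4, Cxcl3, Cxcl1 and Cxcl2. All but Pf4 were higher in TDE against CTR, and Cxcl5, Cxcl3, Cxcl1 and Cxcl2 were also higher against NE. Cxcl1, Cxcl2, Cxcl3 and Cxcl5 are Glu-Leu-Arg CXC chemokines that act on CXCR2. The starts of Cxcl3, Cxcl1 and Cxcl14 are shown because they had the largest fold changes against CTR among called ligands with a match to a searched site. Holding a match was thus a condition for being shown. Ccl17, Ccl6 and Cx3cl1, which fell as well, held no match and are not shown. Each sequence runs from 250 bases before the start to 50 after it (RefSeq, GRCm38.p6), 5′ to 3′ on the strand of the gene, with capitals marking matches to an NF-kB site in the first 3 and to an interferon-stimulated response element core in Cxcl14. Cxcl2 was added after its match had been seen, since it followed Cxcl3, Cxcl1 and Cxcl14 in size of change among the called ligands with a match.
Cxcl3 (chr5:90785851-90786150, plus strand): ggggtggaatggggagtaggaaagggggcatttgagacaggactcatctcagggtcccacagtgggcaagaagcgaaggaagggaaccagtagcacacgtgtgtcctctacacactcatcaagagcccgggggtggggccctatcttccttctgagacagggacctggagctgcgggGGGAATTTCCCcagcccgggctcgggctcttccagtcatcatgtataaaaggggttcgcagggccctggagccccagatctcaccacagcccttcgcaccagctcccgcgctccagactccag
Cxcl1 (chr5:90890995-90891294, plus strand): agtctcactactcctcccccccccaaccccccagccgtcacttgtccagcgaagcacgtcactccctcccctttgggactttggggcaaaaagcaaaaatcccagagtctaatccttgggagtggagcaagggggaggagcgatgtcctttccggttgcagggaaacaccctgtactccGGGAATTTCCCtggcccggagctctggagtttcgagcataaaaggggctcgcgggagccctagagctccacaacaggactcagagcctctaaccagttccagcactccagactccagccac
Cxcl2 (chr5:90903649-90903948, plus strand): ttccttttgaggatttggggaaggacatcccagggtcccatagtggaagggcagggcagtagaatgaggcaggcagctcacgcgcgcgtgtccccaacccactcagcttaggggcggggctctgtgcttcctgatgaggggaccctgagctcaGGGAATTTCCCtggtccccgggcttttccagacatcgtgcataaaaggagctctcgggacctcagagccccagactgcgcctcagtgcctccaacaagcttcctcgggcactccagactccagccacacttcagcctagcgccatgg
Cxcl14 (chr13:56296502-56296801, minus strand): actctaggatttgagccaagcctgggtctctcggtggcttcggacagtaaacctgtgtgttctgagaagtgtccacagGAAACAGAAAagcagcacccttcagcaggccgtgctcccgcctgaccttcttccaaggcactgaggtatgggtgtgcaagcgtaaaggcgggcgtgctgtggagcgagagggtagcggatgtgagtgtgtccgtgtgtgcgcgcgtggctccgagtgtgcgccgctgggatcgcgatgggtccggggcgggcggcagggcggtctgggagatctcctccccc

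The same 10 letters, GGGAATTTCC, began 73 bases before the start of Cxcl3, 71 before that of Cxcl1 and 97 before that of Cxcl2, and on the other strand a further match overlapped each, shifted by 1 base. Starts were known for 28 members, 17 ligands and 11 receptors. Cxcl5, Ccl24, Ccl4, Ccl5 and Ccr7 were among the members without a start sequence. Both strands were searched for the NF-kB site, the interferon-stimulated response element core and the AP-1 site TGANTCA. The NF-kB site was found in 6 of the 17 ligands and 4 of the 11 receptors, compared with 9.6% of 27025 genes. Its holders were not only genes that rose: the same 10 letters stood on the minus strand 179 bases before the start of Ccr3, which fell, and Cxcl10, which did not pass, held 4 matches that overlapped in part. Ccl9, which fell, held 1 match, and Ccrl2, which rose, held 1 stretch that matched on both strands. Ccl3, Ppbp, Cx3cr1 and Ackr3, which rose against CTR, held no match to the NF-kB site. The response element core was found in Cxcl10 and Cxcl14 and in 4.0% of genes, and TGANTCA in 4 ligands and 1 receptor (Ccl9, Cxcl9, Cxcl10, Ppbp and Ccr3) and in 9.0% of genes. A match describes letters in the window and does not show that a factor binds there.

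Cxcl5 had the largest fold change of the ligands that rose. It was at 0.317, 0.632 and 0.656 CPM in CTR, 0.318, 0.271 and 0.646 CPM in NE, and 11.1, 10.2 and 7.89 CPM in TDE. These are 5 to 14 reads in the CTR and NE libraries and 151 to 200 reads in TDE, so its fold rests on few reads outside TDE. Cxcl5 had a log2 fold change of 4.14 ± 0.39 against CTR (edgeR adjusted p = 0.000465) and 4.53 ± 0.40 against NE (adjusted p = 0.000317).

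Cxcl3 was at 3.74, 3.97 and 3.88 CPM in CTR, 2.02, 2.11 and 3.93 CPM in NE, and 43.7, 36.1 and 40.0 CPM in TDE. The lowest TDE library was far above the highest of the other 6, and the fitted fold was 10.3 over CTR and 14.8 over NE. On the log2 scale these were 3.37 ± 0.26 against CTR (edgeR adjusted p = 0.000204) and 3.89 ± 0.27 against NE (adjusted p = 0.0001).

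Cxcl1 was at 0.951, 2.03 and 1.92 CPM in CTR, 1.11, 1.90 and 1.09 CPM in NE, and 11.7, 8.68 and 10.8 CPM in TDE. All TDE libraries were above all others, by a log2 fold change of 2.65 ± 0.34 against CTR (edgeR adjusted p = 0.00193) and 2.92 ± 0.35 against NE (adjusted p = 0.00125). Cxcl2 was the most abundant of these CXCR2 ligands, at 17.1, 18.4 and 17.9 CPM in CTR, 12.6, 10.1 and 15.3 CPM in NE, and 76.5, 57.6 and 67.7 CPM in TDE. Cxcl2 rose by a log2 fold change of 1.92 ± 0.18 against CTR (edgeR adjusted p = 0.000476) and 2.41 ± 0.18 against NE (adjusted p = 0.000165). The estimated counts of Cxcl2 and Cxcl3 were fractional in 2 libraries and added to a whole number in every library, so a few reads had been divided between them. Their sum was 329 to 495 reads in CTR, 226 to 386 in NE and 1717 to 2169 in TDE.

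The remaining members of the cluster, Ppbp and Pf4, encode platelet chemokines. Ppbp was at 11.4, 18.4 and 18.01 CPM in CTR, 16.6, 17.5 and 19.5 CPM in NE, and 25.7, 27.2 and 26.4 CPM in TDE. The TDE libraries were the highest, by a log2 fold change of 0.73 ± 0.19 against CTR (edgeR adjusted p = 0.0350) and 0.57 ± 0.19 against NE (adjusted p = 0.0904). The call was lost without any single TDE library. Pf4 was at 205 CPM in CTR replicate 1, 43.2 and 34.9 CPM in the other CTR libraries, 35.3 to 52.9 CPM in NE and 47.4 to 49.8 CPM in TDE. Its log2 fold change against CTR was -0.96 with CTR replicate 1 and 0.30 without it (edgeR adjusted p = 0.284 and 0.200), so its direction turned on that library. Megakaryocyte and platelet markers did not follow Ppbp: 5 of 6 were lower in TDE against CTR (9.34% of all genes), and none was at 0 in all libraries. Their sum was 77.6 CPM in CTR replicate 1, 48.6 and 38.8 in the other CTR libraries, 40.5 to 43.5 in NE and 15.1 to 17.96 in TDE. Their part in the values of Ppbp and Pf4 was not tested.

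Cxcl14, a chemokine made chiefly by epithelia, was at 44.2, 31.5 and 26.9 CPM in CTR, 32.5, 32.4 and 32.8 CPM in NE, and 6.15, 6.93 and 7.0 CPM in TDE. No TDE library came near the others, and the log2 fold change was -2.35 ± 0.20 against CTR (edgeR adjusted p = 0.000294) and -2.28 ± 0.20 against NE (adjusted p = 0.000267). Cx3cl1, the membrane-bound ligand of CX3CR1, was at 18.1, 20.6 and 20.4 CPM in CTR, 18.2, 21.3 and 18.9 CPM in NE, and 9.09, 9.39 and 8.88 CPM in TDE. Cx3cl1 was near its CTR level in NE and lower in every TDE library, with a log2 fold change of -1.11 ± 0.13 against CTR (edgeR adjusted p = 0.00112) and -1.09 ± 0.13 against NE (adjusted p = 0.00109). Cxcl10, an interferon-induced ligand of CXCR3, was at 1.36 to 2.97 CPM and did not pass (log2 fold change -0.76 against CTR, edgeR adjusted p = 0.111). It shares exon bases with Art3 on the opposite strand. Its neighbours Cxcl9, another CXCR3 ligand, and Cxcl11, annotated in GENCODE as a polymorphic pseudogene, were at 3 reads or fewer. Cxcl16, a membrane-bound ligand of CXCR6, was at 191 to 423 CPM in CTR, 184 to 226 CPM in NE and 229 to 239 CPM in TDE. Its log2 fold change against CTR was -0.25 with CTR replicate 1 and 0.18 without it, neither of which passed. Reads of Cxcl16 were divided with Zmynd15, an overlapping gene on the opposite strand.

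**Figure D3:**
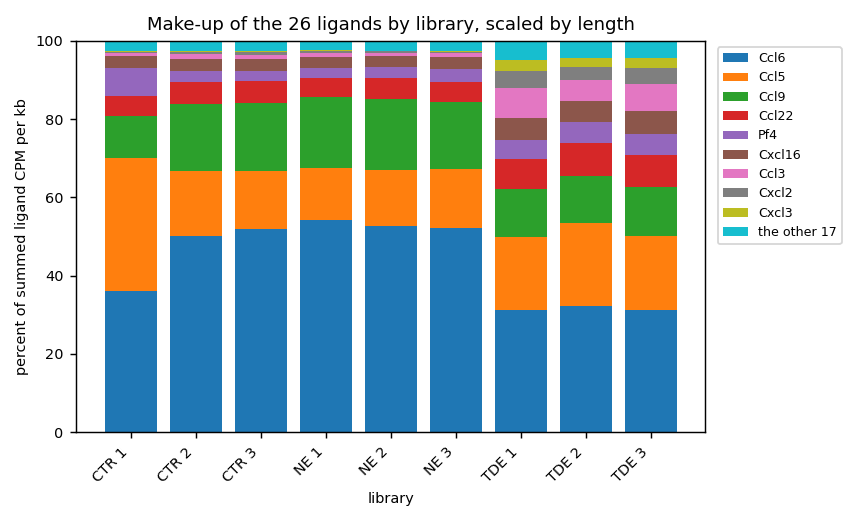
Percent of the summed length-scaled level (CPM per kb) of all 26 ligands that each ligand made up, in each of the 9 libraries. The 3 TDE bars show a smaller share of Ccl6 and larger shares of Ccl3, Cxcl2 and Cxcl3 than the CTR and NE bars. Their Ccl9 shares are below those of NE and of CTR replicates 2 and 3, but above that of CTR replicate 1. CTR replicate 1 has larger Ccl5 and Pf4 shares and smaller Ccl6 and Ccl9 shares than the other CTR libraries.

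Scaled by transcript length, the summed level of the ligands was 5009, 2628 and 2319 CPM per kb in CTR, 2368 to 2814 CPM per kb in NE and 1551 to 1604 CPM per kb in TDE. The TDE sums were the lowest of the 9 libraries. Ccl6 made up 45.9% ± 8.7 (SD, n = 3) of that sum in CTR, 52.9% ± 1.1 in NE and 31.5% ± 0.55 in TDE. Together Ccl6, Ccl9 and Ccl5 made up 82.9% ± 1.9 in CTR, 85.0% ± 0.69 in NE and 63.3% ± 1.9 in TDE. The share of Cxcl1, Cxcl2, Cxcl3 and Cxcl5 was 0.75% ± 0.30 in CTR, 0.62% ± 0.06 in NE and 7.43% ± 0.81 in TDE, and that of Ccl3 and Ccl4 was 1.5% ± 0.19, 1.26% ± 0.09 and 7.84% ± 1.5. Thus the ligands that rose made up a larger part of the ligand sum in TDE, but a smaller one than Ccl6, Ccl9 and Ccl5 together. Ccl6 was the highest length-scaled ligand in all 9 libraries. These shares are a description and were not tested.

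Among the receptors, Ccr3, the eotaxin receptor of eosinophils, fell most. It was at 1.39, 3.79 and 2.77 CPM in CTR, 3.24, 3.25 and 2.69 CPM in NE, and 0.277, 0.382 and 0.522 CPM in TDE, the latter being 5, 7 and 10 reads. All TDE libraries were below all others. Ccr3 had a log2 fold change of -2.74 ± 0.42 against CTR (edgeR adjusted p = 0.00437) and -2.93 ± 0.42 against NE (adjusted p = 0.00312). Eosinophil and mast cell markers moved with Ccr3 and with its ligand Ccl24. All 9 on the list (among them Prg2, Epx and Siglecf) passed lower in both TDE comparisons (9.34% of all genes against CTR, 7.21% against NE). None was at 0 in all libraries. Their summed level was 1891 CPM in CTR replicate 1, 885 and 685 in the other CTR libraries, 705 to 803 in NE and 129 to 156 in TDE. Their part in the drop of Ccr3 and Ccl24 was not tested.

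Ccr7, the lymph node homing receptor of mature dendritic cells, was at 761, 398 and 339 CPM in CTR, 308, 336 and 382 CPM in NE, and 178, 200 and 180 CPM in TDE. The TDE libraries were the lowest throughout. The log2 fold change was -1.42 ± 0.29 against CTR (edgeR adjusted p = 0.0131) and -0.996 ± 0.11 without CTR replicate 1 (adjusted p = 0.000176), while against NE it was -0.88 ± 0.29 and did not pass (adjusted p = 0.0820). Of 10 tested dendritic cell markers, 3 were lower in TDE against CTR (9.34% of all genes), the antigen presentation genes Cd74, H2-Aa and H2-Ab1. Without CTR replicate 1 there were 7 lower and 1 higher (18% and 16.4% of all genes). Their list summed to 12310 CPM in CTR replicate 1, 4944 and 4046 in the other CTR libraries, 3869 to 4811 in NE and 2259 to 2391 in TDE, and its part in the Ccr7 values was not tested. Cxcr4, the CXCL12 receptor that retains cells in bone marrow, was at 102, 137 and 123 CPM in CTR, 126, 131 and 139 CPM in NE, and 75.3, 64.7 and 69.3 CPM in TDE. It fell without overlap, by a log2 fold change of -0.79 ± 0.14 against CTR (edgeR adjusted p = 0.00839) and -0.92 ± 0.14 against NE (adjusted p = 0.00433). The ligand CXCL12 itself was barely transcribed in these cultures, with Cxcl12 at 0.32 CPM or less in every library.

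Cx3cr1, the receptor of CX3CL1 on monocytes and macrophages, rose while its ligand fell. It was at 165, 106 and 120 CPM in CTR, 107, 113 and 98.7 CPM in NE, and 234, 235 and 238 CPM in TDE. The TDE libraries were nearly equal and above all others. The log2 fold change of Cx3cr1 was 0.85 ± 0.18 against CTR (edgeR adjusted p = 0.0136) and 1.15 ± 0.18 against NE (adjusted p = 0.00405). Of 8 macrophage or monocyte markers 1, Adgre1 (F4/80), passed, higher in both comparisons (7.57% and 6.73% of all genes passed higher). Without CTR replicate 1, 2 were higher and 3 lower against CTR (16.4% and 18% of all genes). The list summed to 3825 to 4481 CPM in CTR, 4123 to 4589 in NE and 5761 to 6171 in TDE. The median log2 fold change over its 8 markers was -0.13 in TDE against CTR and -0.03 in TDE against NE, so the sum did not describe the typical marker. No marker of that list was at 0 in all libraries, and its part in the Cx3cr1 values was not tested. Exons of Cx3cr1 overlap Gm33858 on the opposite strand.

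The receptors that did not pass against CTR included the most abundant one. Ccr2, the CCL2 receptor of inflammatory monocytes, had the highest length-scaled level of the receptors, 369 CPM per kb in CTR, 423 in NE and 292 in TDE, and was at 1059 to 1499, 1414 to 1528 and 1007 to 1049 CPM. Ccr2 had a log2 fold change of -0.34 ± 0.16 against CTR (edgeR adjusted p = 0.160) and -0.53 ± 0.16 against NE (adjusted p = 0.0575), and without CTR replicate 1 it was -0.48 ± 0.08 against CTR (adjusted p = 0.00154). Cxcr2, the receptor of the CXC ligands that rose, was at 31.5, 64.8 and 59.0 CPM in CTR, 57.5, 63.8 and 71.1 CPM in NE, and 47.7, 51.0 and 46.9 CPM in TDE. Its log2 fold change was -0.09 ± 0.25 against CTR (edgeR adjusted p = 0.794) and -0.36 ± 0.10 without CTR replicate 1 (adjusted p = 0.0228), so neither fit put it higher in TDE. Of 10 neutrophil markers, 8 were lower in TDE against CTR and 6 against NE (9.34% and 7.21% of all genes). These markers summed to 28985 CPM in CTR replicate 1, 9599 and 7253 in the other CTR libraries, 7646 to 10933 in NE and 3254 to 3552 in TDE. None was at 0 in all libraries. The part of neutrophils in the Cxcr2 values was not tested. Ccr1, a receptor of CCL3 and CCL5, was at 145 to 220 CPM across the 9 libraries. Cxcr3 and Xcr1, the latter a receptor of cross-presenting dendritic cells, were at 2.73 CPM or less. None of these last 3 passed in any comparison.

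**Figure D4:**
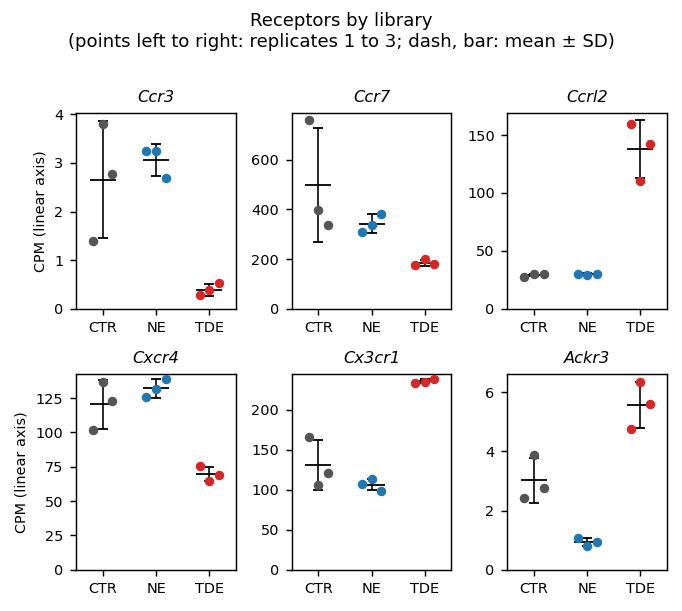
CPM in each library (linear axes starting at 0) for the 6 receptors that passed in TDE against CTR or TDE against NE. Points are replicates 1 to 3 from left to right, dashes the group mean and bars the SD. Ccr3, Ccr7 and Cxcr4 have all TDE points at the bottom, Ccrl2, Cx3cr1 and Ackr3 at the top, and the NE points of Ackr3 lie below those of CTR.

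The atypical receptors held the largest rise among receptors. Ccrl2, which binds chemerin and presents it to neighbouring cells, was at 27.6, 29.8 and 29.6 CPM in CTR, 30.2, 28.7 and 30.1 CPM in NE, and 160, 110 and 142 CPM in TDE. The CTR and NE libraries were alike and the TDE libraries stood far above both. The log2 fold change was 2.24 ± 0.16 against CTR (edgeR adjusted p = 0.000129) and 2.21 ± 0.16 against NE (adjusted p = 0.000111). Ackr3, which scavenges CXCL12, was at 2.41, 3.88 and 2.77 CPM in CTR, 1.06, 0.81 and 0.94 CPM in NE, and 4.77, 6.33 and 5.59 CPM in TDE. The 3 groups did not overlap, with NE lowest and TDE highest. Its log2 fold change was 0.88 ± 0.24 in TDE against CTR (edgeR adjusted p = 0.0422) and 2.56 ± 0.26 in TDE against NE (adjusted p = 0.000598). The call against CTR was lost in 8 of 13 alternatives, among them the fit without any single TDE library (adjusted p up to 0.153). In NE against CTR the log2 fold change was -1.68 ± 0.26, which did not pass (edgeR adjusted p = 0.659). DESeq2 passed it (adjusted p = 0.0104), and over all alternatives the adjusted p ran from 0.0104 to 0.876. Ackr2, which scavenges inflammatory CC chemokines, had 0 to 4 reads.

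In NE against CTR no member passed by edgeR's test. At an unadjusted p under 0.05 (edgeR) there were 2 ligands and 2 receptors, and 487 of 15028 genes overall. These were Ccl4 (log2 fold change -0.87 ± 0.36), Cxcl2 (-0.49 ± 0.18), Cxcr3 (0.76 ± 0.29) and Ackr3. DESeq2 passed 0 ligands and 1 receptor, Ackr3, and 3 of 28781 genes (0.0104%). The median log2 fold change over the tested ligands was -0.44 with all libraries and -0.08 without CTR replicate 1.

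**Figure D5:**
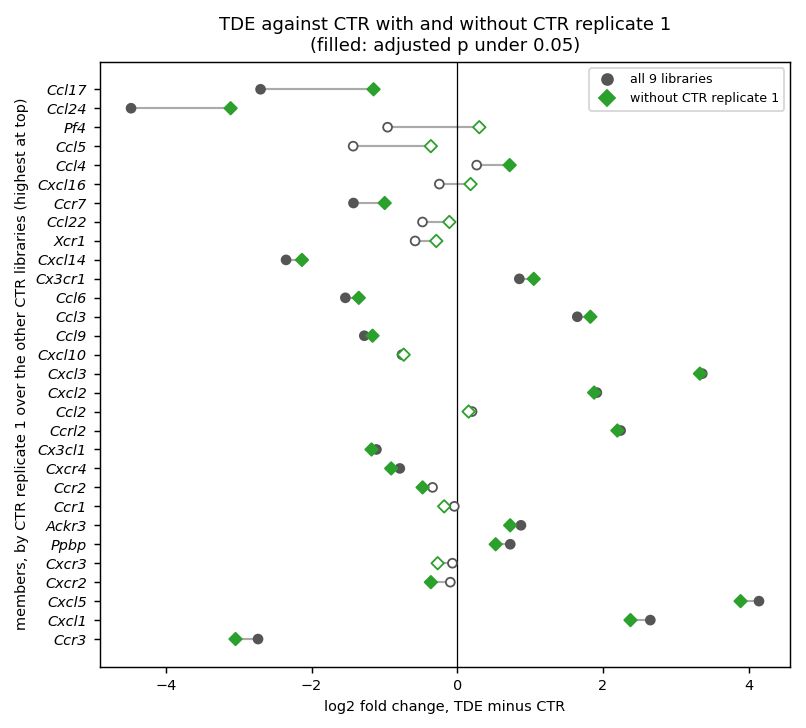
Log2 fold change in TDE against CTR of the 30 tested members with all 9 libraries (circles) and without CTR replicate 1 (diamonds), ordered by the level of CTR replicate 1 over the mean of the other CTR libraries. Filled symbols have an adjusted p under 0.05 (edgeR). The values of Ccl17, Ccl24, Pf4 and Ccl5, at the top, move most, and Cxcl2, Cxcl3 and Ccrl2 hardly move.

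Without CTR replicate 1, 13 ligands and 8 receptors passed in TDE against CTR, while 16.4% of all genes passed higher and 18% lower. Leaving out a TDE library lowered the receptor count to 3 (without TDE replicate 1), 2 (replicate 2) and 2 (replicate 3), with Ccr3 and Ccrl2 called in each. Over all genes the share that passed fell as well, from 16.9% to 7.18%, 7.63% and 7.15%. Against CTR and against NE, Ccl3, Ccl6, Ccl9, Cxcl1, Cxcl2, Cxcl3, Cxcl5, Cxcl14, Cx3cl1, Ccr3 and Ccrl2 passed in all alternative fits that gave them a value.

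By position, 3 further clusters held at least 1 change. Of the 5 members within 138.9 kb of chromosome 11 (chr11:83525778-83664683), Ccl6 and Ccl9 fell and Ccl3 rose in both TDE comparisons, while Ccl5 and Ccl4 did not pass, so neighbours went in both directions. In 66.4 kb of chromosome 8 (chr8:94745590-94812036), Cx3cl1 fell in both comparisons and Ccl17 in TDE against CTR, and Ccl22 beside them passed in neither. Of the 4 receptor genes in 261.2 kb of chromosome 9 (chr9:123852315-124113557), Ccr3 fell, and Xcr1, Ccr1 and Ccr2 did not pass.

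Other genes of the pathway came from lists. Among further chemokines and receptors, Cxcr5, the CXCL13 receptor, was at 1.19 to 2.66 CPM in CTR and NE and 3.87 to 5.13 CPM in TDE. The TDE libraries were the highest, by a log2 fold change of 1.05 ± 0.29 against CTR (edgeR adjusted p = 0.0415) and 1.63 against NE (adjusted p = 0.00876). Ccl25, Ccl27a, Ccr6 and Ccr9 were tested as well and passed in no comparison. In TDE against CTR their log2 fold changes were -0.13, -0.91, 0.27 and 0.004 (edgeR adjusted p = 0.721, 0.322, 0.833 and 0.997). Of 51 tested genes of signal transduction below the receptors, 12 were higher in TDE against CTR and none lower (7.57% and 9.34% of all genes). Without CTR replicate 1 the counts were 21 and 5 (16.4% and 18% of all genes). Examples are Arrb1, which encodes beta-arrestin 1 (log2 fold change 1.10 ± 0.19, edgeR adjusted p = 0.00638), the kinase gene Lyn (1.07 ± 0.19, 0.00707), the GTPase gene Rac2 (0.93 ± 0.23, 0.0293) and Pik3r5, a subunit of the PI3-kinase driven by G proteins (0.90 ± 0.14, 0.00476). Against NE, 8 were higher and 1, Akt1, lower (6.73% and 7.21% of all genes).

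Regulators of G protein signaling, which end signals of these receptors, went down where they changed. Of 8 tested, 4 were lower in TDE against CTR and none higher: Rgs2 (log2 fold change -1.05 ± 0.16), Rgs3 (-1.03 ± 0.17), Rgs18 (-0.99 ± 0.15) and Rgs14 (-0.84 ± 0.14). Against NE 4 were lower as well, and 7 of 9 were lower against CTR without CTR replicate 1. Over all genes, 9.34% passed lower against CTR, 7.21% against NE and 18% against CTR without CTR replicate 1. Of 10 tested proteases that can trim chemokines, 2 were higher in TDE against CTR and 5 lower (7.57% and 9.34% of all genes). The matrix metalloproteinase genes Mmp2 (2.12 ± 0.18) and Mmp14 (1.05 ± 0.16) were higher, and Elane (-2.18 ± 0.50), Ctsg (-1.61 ± 0.32), Mmp12 (-1.58 ± 0.16), Dpp4 (-1.34 ± 0.23) and Mmp9 (-0.84 ± 0.11) were lower. Elane and Ctsg encode proteases of neutrophil granules, and Elane is also on the neutrophil list above. Other lists mark cells that the cultures should hold few of. Of 5 tested T, B or NK cell genes, 4 were lower in TDE against CTR and 1 against NE. Of 5 fibroblast genes, 2 were higher against CTR and 1 against NE, and 1 of 2 epithelial genes was lower in both comparisons. Over all genes, 9.34% passed lower and 7.57% higher against CTR, and 7.21% and 6.73% against NE. Without CTR replicate 1, 1 fibroblast gene was lower against CTR beside 2 higher (18% and 16.4% of all genes). Summed within a library, the lists ranged from 10.9 to 37.7 CPM (T, B or NK cell), 5.86 to 10.8 CPM (fibroblast) and 4.37 to 12.7 CPM (epithelial). Their part in the chemokine values was not tested.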

How the data were processed

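RNA of the BMDCs was extracted with TRIzol and sequenced on an Illumina NovaSeq system. The submitters' processing notes name TopHat2 2.1.1, DESeq2 1.24.0 and R 3.3.1. The authors aligned the reads and deposited 1 table of estimated counts per gene, unnormalized and partly fractional. The counter, its strand setting and the genome build are not given in the sources used here. The deposited counts were rounded to whole numbers, filtered with filterByExpr and TMM-normalized, and tested over all 9 libraries with edgeR 4.0.16 (quasi-likelihood F test, R 4.3.3) with Benjamini-Hochberg adjustment at 0.05 and no fold limit. CPM use the TMM-scaled library sizes, and SE is the absolute log2 fold change divided by the square root of F. The test was first run on simulated data. A floor of 3 reads per library limited which folds are read as sizes. Alternatives were DESeq2 1.42.0, other scalings, other filters, the pair alone, blocking on the replicate number and leaving out single libraries in turn. Positions are from GENCODE (GRCm38). Values per library are given for members that passed against CTR or NE, and other members by range. The members and gene lists were chosen with earlier results of these data known. Protein sequences were not used here. One gene of the further chemokines and receptors is not reported here.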

Additional observations from a re-analysis of the deposited data

How the results depend on the processing

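Receptor counts varied more between fits than ligand counts, and the share of all genes that passed varied as well. In TDE against CTR 6 receptors passed, and 3 with only the 6 libraries of the pair (7.93% of all genes then passed). When each library was left out in turn, 2 to 8 receptors passed (7.15% to 34.4% of all genes). In TDE against NE the pair alone gave 10 receptors (41.9% of all genes) in place of 5. In NE against CTR DESeq2 gave 1 receptor, Ackr3, in place of 0. Ligand counts stayed within 1.5 times of 12, 10 and 0 in every alternative run, and no called member changed direction. In TDE against CTR, Ccl17 was called in 7 of 13 alternatives, Ppbp in 6, Ackr3 in 5, Ccr7 and Cx3cr1 in 9 and Cxcr4 in 10 of 13, and Ccl24 in 9 of 12. The cause was not tested. Same-numbered libraries did not deviate together in every pair, so the numbers were not taken as pairing. For replicates 1 to 3 the correlations were -0.035, -0.056 and 0.072 for TDE and CTR and 0.027, -0.039 and -0.071 for TDE and NE. For NE and CTR they were larger but of mixed sign, -0.37, 0.18 and -0.59. With the replicate number as a block, 10 ligands and 5 receptors passed in TDE against CTR (Ccl17, Ppbp and Ackr3 did not; 8.55% of all genes passed), 10 and 5 in TDE against NE (7.82% of all genes), and 0 and 0 in NE against CTR. With 3 libraries a group, genes at a few reads, such as Ccl24, Ccr3 and Cxcl5 outside TDE, have the least certain folds.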
